A study of Mus musculus with 7 samples.

Results

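The genes described are 9 of the 35641 genes in the deposited table: Atf4, Atf5, Ddit3, Trib3, Ppp1r15a, Ddit4, Sesn2, Chac1 and Asns, which were chosen by name as genes of the integrated stress response. They were measured by RNA sequencing in lung cells sorted from female mice of the C57BL6 strain, with 4 HF libraries (HF1 to HF4) and 3 libraries labelled LF (LF6 to LF8). The labels give the gate as CD45+, CD11b+, low for Ly6C and positive for Ly6G, the surface protein that marks mouse neutrophils. The labels do not spell out HF and LF, the title of the study speaks of obesity, and the age of the mice is not given in the sources used here. The comparison made is HF against the LF-labelled libraries.

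The integrated stress response is a pathway in which several kinases, each sensing a different stress, phosphorylate the initiation factor eIF2. This lowers translation of most mRNAs while that of a few, such as the mRNA of the transcription factor ATF4, goes up. ATF4 then raises transcription of genes for amino acid supply and for handling of stress, among them DDIT3 (also called CHOP), and PPP1R15A (also called GADD34) closes the loop by bringing a phosphatase to eIF2. Much of ATF4's control is translational, so mRNA levels show only a portion of the pathway.

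The libraries labelled LF, called the LF-labelled libraries from here on, went against the sort. Ly6g, the gene of the Ly6G protein, stood at 4431, 1301, 2378 and 4944 normalized counts in HF1 to HF4, against 0.749, 0 and 8.22 in LF6 to LF8. Summed over 14 neutrophil markers, the HF libraries held 445200 to 601700 normalized counts, against 13020 to 14400 in the LF-labelled libraries, where no marker was at 0 in all 3 libraries. In HF 13 of these markers were higher, and 0 were lower. Summed over 15 monocyte and interstitial macrophage markers, the HF libraries held 30590 to 43380, against 161100 to 170900 in the LF-labelled libraries, and no marker was at 0 in all libraries of a group. Of these, 10 were lower in HF and 1 was higher, Cd14, named after its values were seen. Every difference below is therefore one between the HF libraries and the LF-labelled libraries, in which the same cell type is not shown to have been sequenced. The part of the cell types in the differences between the stress response genes was not tested. In bulk libraries such as these, fewer cells of a type and less RNA per cell cannot be told apart. Platelet genes came to 802 to 3756 in HF and 161 to 354 in the LF-labelled libraries, and class II and dendritic cell genes came to 12560 to 30850 in HF and 71110 to 86810 in the LF-labelled libraries. Alveolar macrophage genes came to 9325 to 34350 in HF and 23420 to 25630 in the LF-labelled libraries, and most of each sum was Chil3. This gene alone stood at 30151, 6508, 9035 and 6822 in HF1 to HF4, against 18663, 20453 and 19842 in LF6 to LF8. Of the 9 tested genes of that list 2 were higher in HF, 1 was lower and 6 did not pass, so the sum does not measure alveolar macrophage content. T and NK cell genes came to 1457 to 2037 in HF and 1825 to 3154 in the LF-labelled libraries. Eosinophil, basophil and mast cell genes came to 944 to 1325 in HF and 68.2 to 190 in the LF-labelled libraries, B cell genes to 5197 to 10780 in HF and 6936 to 7604 in the LF-labelled libraries, and genes of structural lung cells to 1069 to 3025 in HF and 482 to 1119 in the LF-labelled libraries. Reads assigned to genes numbered 13943173 to 16599658 in HF and 16974428 to 18983351 in the LF-labelled libraries.

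The promoters of 4 of the 9 genes are shown because they hold one of 2 motifs through which ATF4 and related bZIP factors are known to act on such genes. The motifs were TGATGNAA, the C/EBP-ATF response element, and TGACGTCA, the cyclic AMP response element, and both strands were searched over 250 bases before and 50 bases after the RefSeq start of each gene (build GRCm38.p6). All 9 genes matched a window by symbol, and Atf5 had 2 windows. TGATGNAA was found in Chac1 (as TTGCATCA, 193 bases upstream of the start), in Asns (as TGATGAAA, 23 bases upstream) and in Trib3 (as TTACATCA, 14 bases downstream). TGACGTCA was found in Ppp1r15a, 12 bases upstream. Over all 32851 RefSeq windows of the same length, 3.97% held TGATGNAA and 1.79% held TGACGTCA, and no window of the 9 genes held both. Counted by gene, the shares were 4.51% and 2.03% of 27025 genes, beside 3 and 1 of the 9 genes. A match is a description of the letters in a window, and no binding was measured. The stretches below run from 250 bases before to 30 bases after the start, 5′ to 3′ on the strand of the gene, with the motif in capitals. They lie at chr2:119350992-119351271 (plus strand) for Chac1, chr6:7693180-7693459 (minus strand) for Asns, chr2:152344031-152344310 (minus strand) for Trib3 and chr7:45526239-45526518 (minus strand) for Ppp1r15a.
Chac1: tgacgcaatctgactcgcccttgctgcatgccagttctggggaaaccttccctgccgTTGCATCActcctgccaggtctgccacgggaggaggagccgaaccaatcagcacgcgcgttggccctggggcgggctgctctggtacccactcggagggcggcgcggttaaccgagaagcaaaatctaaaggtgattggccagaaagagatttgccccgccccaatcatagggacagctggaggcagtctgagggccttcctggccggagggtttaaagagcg
Asns: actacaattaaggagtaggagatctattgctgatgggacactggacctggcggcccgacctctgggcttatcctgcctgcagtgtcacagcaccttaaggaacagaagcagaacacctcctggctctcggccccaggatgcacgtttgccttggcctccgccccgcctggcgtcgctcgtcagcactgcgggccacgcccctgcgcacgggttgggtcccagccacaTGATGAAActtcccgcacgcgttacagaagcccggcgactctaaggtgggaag
Trib3: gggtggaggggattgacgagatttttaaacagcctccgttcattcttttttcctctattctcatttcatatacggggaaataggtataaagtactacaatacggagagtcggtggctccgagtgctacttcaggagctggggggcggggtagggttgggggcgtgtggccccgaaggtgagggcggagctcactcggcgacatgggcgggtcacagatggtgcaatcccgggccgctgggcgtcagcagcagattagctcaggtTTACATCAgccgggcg
Ppp1r15a: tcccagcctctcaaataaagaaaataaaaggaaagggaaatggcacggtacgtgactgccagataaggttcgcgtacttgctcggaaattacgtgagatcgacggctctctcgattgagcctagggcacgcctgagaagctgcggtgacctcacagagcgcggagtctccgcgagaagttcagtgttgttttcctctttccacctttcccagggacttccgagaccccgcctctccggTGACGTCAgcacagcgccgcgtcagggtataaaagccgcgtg

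Of the 9 genes, 8 reached the limit of a mean count of 10 (normalized, over the 7 libraries) and were tested, and Atf5 lay below it. Of these 8, 7 were higher in HF, 1 was lower, and none missed the threshold (limma adjusted p under 0.05). Among all 14936 genes tested, 55.0% passed, with 26.2% higher and 28.7% lower in HF, so a call by itself was common in this comparison. The HF values lay above all those of the LF-labelled libraries in 7 of the 8 genes and below them in 1, against 28.4% and 33.7% of all tested genes. The median log2 difference, HF minus the LF-labelled libraries, was 2.95 over the 8 genes and -0.16 over all tested genes. The differences of Chac1, Asns, Trib3, Ddit3 and Sesn2 were exceeded by those of 0.194%, 4.35%, 5.25%, 6.05% and 7.39% of tested genes, while those of Ppp1r15a and Atf4 were exceeded by 26.9% and 28.6%. The genes were chosen with earlier results of these data known.

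**Figure D1:**
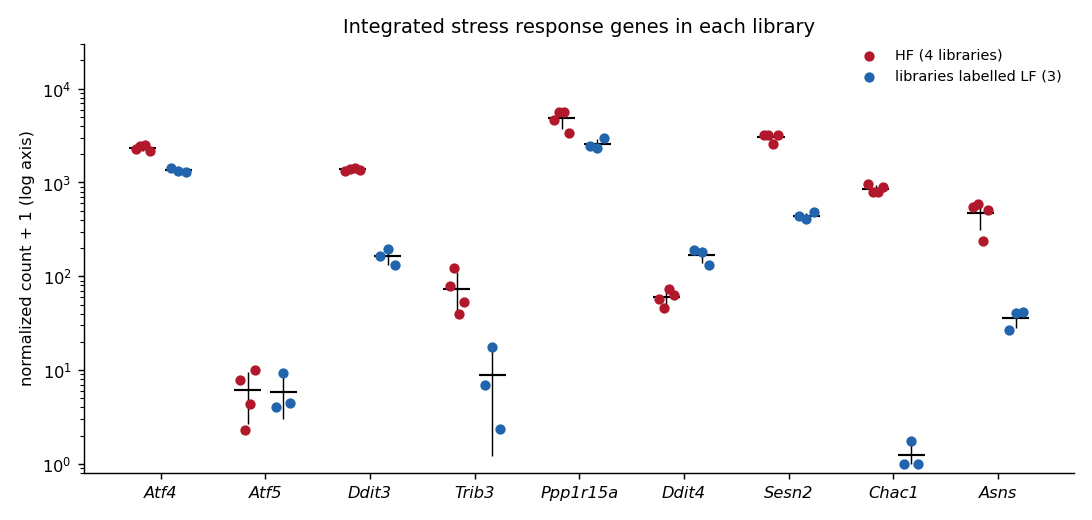
Normalized count plus 1 (log axis) of the 9 genes in each library, with HF in red on the left and the LF-labelled libraries in blue on the right of each pair. Horizontal lines are means and vertical lines 1 SD to either side. The groups are separate in every gene except Atf5, and Ddit4 is the 1 gene with HF below the LF-labelled libraries.

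Atf4, the transcription factor at the centre of the pathway, was moderately higher in HF. Its normalized counts were 2276, 2430, 2482 and 2160 in HF1 to HF4, against 1416, 1321 and 1298 in LF6 to LF8. All HF libraries lay above all LF-labelled libraries, with coefficients of variation of 6.29% in HF and 4.65% in the LF-labelled libraries. The log2 difference was 0.80 ± 0.09 (SE; limma adjusted p = 0.000155). It was 0.28 when all libraries were set to equal totals (limma adjusted p = 0.0402; the alternatives ranged from 3.71e-17 to 0.0402).

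Ddit3 encodes CHOP, a transcription factor that acts downstream of ATF4 and is known for its part in cell death under lasting stress. It stood at 1341, 1405, 1440 and 1367 normalized counts in HF1 to HF4, against 162, 192 and 131 in LF6 to LF8. HF was tight around its mean, with a coefficient of variation of 3.12%, the lowest of the 9 genes. Its log2 difference came to 3.11 ± 0.16 (SE; limma adjusted p = 1.71e-06).

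Atf5, a bZIP factor related to ATF4 whose translation responds to the same kinases, was barely detected. It stood at 6.92, 1.29, 3.36 and 8.98 normalized counts in HF1 to HF4, against 3.00, 8.26 and 3.42 in LF6 to LF8, which came from 17 reads in HF and 20 in the LF-labelled libraries. The groups overlapped. Pooling the reads of each group and allowing for the size factors, the ratio of HF over the LF-labelled libraries was 1.06 with a 95% interval of 0.521 to 2.13 (counting error only), so no difference was detectable at this depth. With no filter on low values its log2 difference was -0.05 (limma adjusted p = 0.976).

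Of the genes that hold the pathway in check, Trib3 encodes a pseudokinase that binds ATF4 and CHOP and dampens their activity. It was low in both groups, with 78.4, 122, 38.1 and 52.6 normalized counts in HF1 to HF4, against 5.99, 16.5 and 1.37 in LF6 to LF8. The groups did not overlap, but the spread was wide on both sides, with coefficients of variation of 50.6% in HF and 97.5% in the LF-labelled libraries. On the log2 scale the difference was 3.35 ± 0.77 (SE; limma adjusted p = 0.00687). From pooled reads, 238 in HF and 32 in the LF-labelled libraries, the ratio allowing for size factors was 9.27, with a 95% interval of 6.39 to 13.9 for counting error only. Single LF-labelled libraries moved the log2 difference: it was 4.05 without LF7 and 2.604 without LF8.

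Ppp1r15a encodes GADD34, the stress-induced subunit that directs a phosphatase to eIF2. It stood at 4671, 5712, 5687 and 3362 normalized counts in HF1 to HF4, against 2436, 2323 and 2965 in LF6 to LF8. The groups did not overlap, with HF4 the closest to the LF-labelled libraries. This gave a log2 difference of 0.89 ± 0.19 (SE; limma adjusted p = 0.00507). This call depended on the scaling of the libraries: at equal library totals the difference was 0.37 (limma adjusted p = 0.158), and it was also 0.37 after quantile normalization (limma adjusted p = 0.117), and the alternatives ranged from 1.37e-05 to 0.158.

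Ddit4 and Sesn2 both encode stress-induced inhibitors of the growth kinase complex mTORC1, and they went opposite ways. Ddit4 (also called REDD1) stood at 56.5, 45, 72.9 and 61.6 normalized counts in HF1 to HF4, against 191, 181 and 132 in LF6 to LF8. It was the 1 tested gene of the 9 that was lower in HF, and the groups did not overlap. The log2 difference was -1.50 ± 0.30 (SE; limma adjusted p = 0.0035), and it lay between -2.01 and -1.16 over the alternatives, all past the threshold. Besides ATF4, Ddit4 is known to respond to hypoxia and to glucocorticoids.

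Sesn2 (sestrin 2), which senses leucine and is a target of ATF4, stood at 3244, 3222, 2594 and 3185 normalized counts in HF1 to HF4, against 435, 408 and 480 in LF6 to LF8. All HF libraries lay far above all LF-labelled libraries. HF3 was below the other HF libraries, which lay close to each other. The log2 difference was 2.79 ± 0.12 (SE; limma adjusted p = 7.23e-07), and 2.87 without HF3.

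Among the metabolic targets, Chac1 encodes an enzyme that degrades glutathione and is a marker of ATF4 and CHOP activity. It stood at 973, 783, 798 and 888 normalized counts in HF1 to HF4, against 0, 0.751 and 0 in LF6 to LF8. HF held 2857 reads of the gene and the LF-labelled libraries held 1 read. From these pooled reads the ratio of HF over the LF-labelled libraries, allowing for size factors, was 3562 with a 95% interval of 639 to 140700, which covers counting error only. With a pseudocount of 1 the log2 difference was 9.48 ± 0.37 (SE; limma adjusted p = 4.39e-07). Its size depends on the pseudocount, with 7.36 at a pseudocount of 5 and 11.70 by DESeq2, and every alternative passed the threshold. In HF the coefficient of variation was 10.2%.

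Asns encodes asparagine synthetase, a classic target of ATF4 when amino acids run short. It stood at 552, 584, 235 and 513 normalized counts in HF1 to HF4, against 25.5, 39.8 and 40.4 in LF6 to LF8. HF3 was well below the other HF libraries and still above every LF-labelled library. The log2 difference was 3.65 ± 0.38 (SE; limma adjusted p = 9.41e-05), and 3.95 without HF3. In the authors' deposited table the log2 fold changes were 0.80 for Atf4, 3.10 for Ddit3, 3.20 for Trib3, 0.92 for Ppp1r15a, -1.51 for Ddit4, 2.80 for Sesn2, 11.69 for Chac1 and 3.74 for Asns.

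No single HF library was high or low throughout. Of the 8 tested genes, HF1 was the highest library in 2 and the lowest in 1, HF2 the highest in 3 and the lowest in 2, HF3 the highest in 3 and the lowest in 3, and HF4 the highest in 0 and the lowest in 2. The 3 genes lowest in HF3 were Sesn2, Asns and Trib3, and the 3 highest there were Atf4, Ddit3 and Ddit4.

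Levels between genes were compared per kilobase of exon (normalized counts per kilobase, with exon lengths from the GENCODE annotation of GRCm38). Ppp1r15a led in both groups, at 1654 ± 378 in HF (n = 4) and 877 ± 117 in the LF-labelled libraries (n = 3; SD here and below). Atf4 followed at 991 ± 62.3 in HF and 570 ± 26.5 in the LF-labelled libraries. In HF came next Sesn2 at 881 ± 89.8, Ddit3 at 810 ± 25.3 and Chac1 at 526 ± 53.8 per kilobase. Atf4 and Sesn2 lay close in HF, as did Sesn2 and Ddit3, each pair apart by less than the sum of the SDs. Below them in HF stood Asns at 172 ± 58.4, Trib3 at 34.3 ± 17.3, Ddit4 at 33.6 ± 6.59 and Atf5 at 2.58 ± 1.74, and Trib3 and Ddit4 did not differ beyond their spread. In the LF-labelled libraries the order after Atf4 was Sesn2 at 127 ± 10.6, Ddit4 at 95.6 ± 18.2, Ddit3 at 94.3 ± 17.9, Asns at 12.9 ± 3.09, Trib3 at 3.75 ± 3.65, Atf5 at 2.46 ± 1.47 and Chac1 at 0.153 ± 0.265 per kilobase. Ddit4 and Ddit3 were level there, and so were Trib3 and Atf5 given their spread. Ddit4 thus stood in place 8 of 9 in HF and in place 4 of 9 in the LF-labelled libraries, and Chac1 in place 5 and in place 9. Exons of Ddit3 overlap those of a second gene ID of the same name over 6.13% of their length on the same strand, where counting by strand could not separate them, and those of Mars over 3.97% on the opposite strand. Those of Atf5 overlap exons on the opposite strand over 4.11%, and the sources used here do not say if reads were counted by strand.

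Dividing 1 gene by another within the same library cancels a factor common to that library, apart from the effect of the pseudocount on low genes, and 12 such log2 ratios were compared on the authors' values. With 4 against 3 libraries the exact permutation test (two-sided) cannot go below 0.0571, and 0.098 was the smallest value after adjustment over the 12 pairs. Relative to Atf4, Ddit3 was at -0.76, -0.79, -0.79 and -0.66 in HF1 to HF4, against -3.12, -2.77 and -3.30 in LF6 to LF8, a difference in log2 ratio of 2.32 (exact permutation p = 0.0571). Asns relative to Atf4 differed by 2.85 and Chac1 relative to Ddit3 by 6.36, again with no overlap (exact permutation p = 0.0571 each). With 1 read of Chac1 in the LF-labelled libraries, the size of that last ratio rests on the pseudocount, with 7.19 at 0.5 and 4.28 at 5. All 3 ratios were higher in each of the 4 HF libraries than in each LF-labelled library. Trib3 relative to Ddit3 did not separate the groups: the ratio was -4.08, -3.51, -5.20 and -4.67 in HF1 to HF4, against -4.54, -3.46 and -5.80 in LF6 to LF8 (exact permutation p = 0.857).

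Paralogs of the stress-induced members were set beside them. Ppp1r15b, the constitutive partner of the same phosphatase, stood at 4419, 3534, 3611 and 4008 normalized counts in HF1 to HF4, against 4684, 4120 and 4587 in LF6 to LF8 (log2 difference -0.20; limma adjusted p = 0.117). It passed as lower in HF in 3 of 19 alternatives. The log2 ratio of Ppp1r15a to Ppp1r15b was 0.08, 0.69, 0.65 and -0.25 in HF1 to HF4, against -0.94, -0.83 and -0.63 in LF6 to LF8 (difference 1.09, exact permutation p = 0.0571). Sesn1, a sestrin better known as a p53 target, was lower in HF, at 620, 458, 341 and 502 normalized counts in HF1 to HF4, against 775, 819 and 760 in LF6 to LF8 (log2 difference -0.74; limma adjusted p = 0.0154), and its call was lost without LF7. Sesn2 stood above Sesn1 in every HF library and below it in every LF-labelled library, with log2 ratios averaging 2.70 ± 0.23 in HF and -0.83 ± 0.17 in the LF-labelled libraries (SD; difference 3.53, exact permutation p = 0.0571). Chac2, the constitutive relative of Chac1, had 123, 84.9, 74.0 and 171 in HF1 to HF4, against 77.9, 104 and 99.3 in LF6 to LF8 and did not pass the test (log2 difference 0.21, and -0.31 at equal library totals; limma adjusted p = 0.644). The log2 ratio of Chac1 to Chac2 differed by 9.27 (exact permutation p = 0.0571), a size that rests on the pseudocount as well, with 10.1 at 0.5 and 7.16 at 5. Trib1, which steers the degradation of C/EBPα, was higher in HF (log2 difference 2.42; limma adjusted p = 1.63e-06), and the ratio of Trib3 to Trib1 overlapped between the groups (exact permutation p = 0.4). Of the remaining pairs, Sesn2 to Sesn3 differed by 2.45 with no overlap (exact permutation p = 0.0571), while Trib3 to Trib2 (0.171), Atf5 to Atf4 (0.343) and Ddit4 to Ddit4l (0.971) overlapped, the last resting on 14 reads of Ddit4l.

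**Figure D2:**
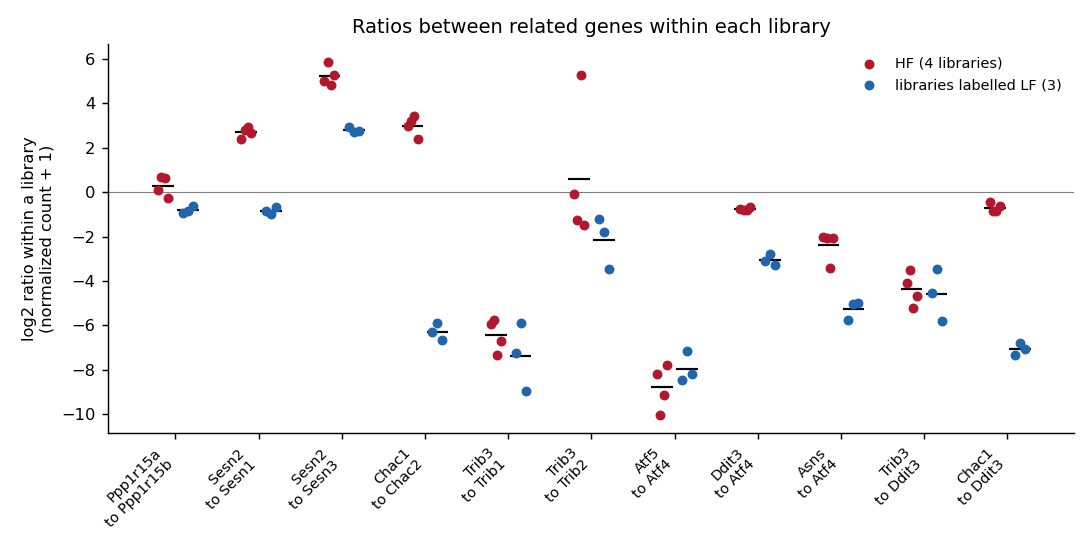
Log2 ratio of 1 gene to another within each library (normalized count + 1), with HF in red on the left and the LF-labelled libraries in blue on the right of each pair, and means as horizontal lines. The ratios of Ddit3 to Atf4, Asns to Atf4 and Chac1 to Ddit3 lie higher in all HF libraries, while those of Trib3 to Ddit3 overlap. The pair with Ddit4l, which has 14 reads, is left out.

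Upstream of Atf4, the kinases of eIF2 differed from one another. Of 9 genes of kinases and their regulators, 2 were higher in HF, 5 were lower and 2 did not pass, with a median log2 difference of -1.004. With equal library totals 2 were higher and 7 were lower, and after quantile normalization 2 were higher and 6 were lower. Eif2ak3, which encodes PERK, the kinase of the endoplasmic reticulum, stood at 2603, 2425, 2536 and 2368 normalized counts in HF1 to HF4, against 779, 848 and 763 in LF6 to LF8, and was higher by 1.64 ± 0.09 (SE; limma adjusted p = 2.68e-06). Eif2ak4, which encodes GCN2, the sensor of uncharged tRNA, went the other way, at 78.4, 117, 72.9 and 126 in HF1 to HF4, against 312, 257 and 353 in LF6 to LF8 (log2 difference -1.66; limma adjusted p = 0.00147). Its activator Gcn1l1 was also lower (-1.07), and Impact, an inhibitor of GCN2 activation, was higher (1.28). Dnajc3, which encodes an inhibitor of PERK and PKR, was lower (-1.17), as was Dele1, which relays mitochondrial stress to the kinase HRI (-3.01). Eif2ak2, which encodes PKR, was lower but near the threshold (log2 difference -1.004; limma adjusted p = 0.0483, lost in 10 of 19 alternatives). Eif2ak1, which encodes HRI, did not pass (-0.31; limma adjusted p = 0.0555), but its groups did not overlap and it passed as lower in 5 of 19 alternatives. Eif2ak4, Impact, Dele1, Eif2ak2 and Eif2ak1 were named after their values were seen.

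Subunits of eIF2 and of its exchange factor eIF2B were 6 lower, 0 higher and 2 not passing of 8, with a median log2 difference of -0.90. Eif2s1, the subunit that the kinases phosphorylate, stood at 444, 455, 547 and 287 normalized counts in HF1 to HF4, against 1646, 1631 and 1577 in LF6 to LF8 (log2 difference -1.94; limma adjusted p = 0.000127). Eif2b5, the catalytic subunit of eIF2B, had a difference of -1.64 and Eif2b4 one of -0.98. With equal library totals all 8 were lower, and after quantile normalization 4 were. In the phosphatase arm 2 of 4 genes passed, both higher, while with equal library totals 1 was higher and 2 were lower and after quantile normalization 1 was higher and 3 were lower. Ppp1cc was higher by 1.47, while Ppp1ca was higher by 0.44 with the authors' scaling, lower after quantile normalization (-0.385; limma adjusted p = 0.00257), and at -0.08 with no call at equal library totals (limma adjusted p = 0.37).

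Of 10 bZIP factors that can pair with ATF4 or act on its sites, 4 were higher and 3 were lower, with a median of 0.35. This median was -0.17 at equal library totals and -0.09 after quantile normalization. Cebpd was higher by 3.39 ± 0.08 (SE), at 8952, 8727, 10492 and 9656 normalized counts in HF1 to HF4, against 886, 897 and 910 in LF6 to LF8. Jdp2 was higher by 3.48 and Batf by 1.59, while Nfe2l2, which encodes the antioxidant factor NRF2, was higher by 0.76 with the authors' scaling and at -0.04 after quantile normalization. The 3 lower ones were Cebpa (-1.97), Batf3 (-2.95) and Maf (-1.81), named after their values were seen. Atf3, an early stress gene, stood at 4383, 5215, 5253 and 2874 in HF1 to HF4, against 3084, 2684 and 3181 in LF6 to LF8, and did not pass (log2 difference 0.53; limma adjusted p = 0.0573). It passed in 5 of 19 alternatives, among them without HF4, where the difference was 0.73.

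Targets of ATF4 outside the 9 genes did not share one direction. Of 14 enzymes of amino acid and one-carbon metabolism 9 were tested, of which 1 was higher and 4 were lower, with a median of -1.95. Mthfd2, the mitochondrial folate enzyme, stood at 287, 127, 121 and 149 normalized counts in HF1 to HF4, against 578, 676 and 615 in LF6 to LF8 (log2 difference -1.95; limma adjusted p = 0.00104). Aldh18a1, an enzyme of proline synthesis (log2 difference -3.06), and Mthfd1l (-2.92) were lower as well. Psat1 was lower too (-3.85) but lost its call in 13 of 19 alternatives. The 1 higher enzyme was Gpt2 (1.11), which lost its call in 7 of 19. Both were named after their values were seen. At equal library totals 0 of these enzymes were higher and 5 were lower.

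Of 11 amino acid transporters 7 were tested, of which 2 were higher and 4 were lower, with a median of -1.999. Slc7a11, the cystine importer that feeds glutathione synthesis, stood at 5827, 11094, 5747 and 7625 normalized counts in HF1 to HF4, against 99.6, 152 and 279 in LF6 to LF8, a log2 difference of 5.49 ± 0.36 (SE; limma adjusted p = 7.31e-06). Slc38a2, a transporter of small neutral amino acids, was higher by 1.03. Slc1a5, a glutamine transporter, was lower (-2.07), as were Slc38a1 (-2.23), Slc7a1 (-1.999) and Slc7a5 (-2.53), the last 3 named after their values were seen. Of 15 tested genes among other targets of ATF4 or CHOP, 8 were higher and 3 were lower, with a median of 0.73, and with equal library totals 5 were higher and 4 were lower, with a median of 0.21. The autophagy gene Map1lc3b was higher by 2.04, Txnip, which binds thioredoxin, by 1.80, and the translation repressor Eif4ebp1 by 1.65. The 3 lower ones, named after their values were seen, were Nupr1 (-3.41), Xpot (-0.87) and Bbc3 (-0.59), the last losing its call in 8 of 19 alternatives. Vegfa, also a hypoxia gene and likewise named after its value was seen, was higher by 6.28.

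Of 15 genes between the sestrins, DDIT4 and mTORC1, 8 were lower, 2 were higher and 5 did not pass, with a median of -0.94. At equal library totals 11 were lower, and after quantile normalization 7 were. Seh1l (-1.21) and Nprl3 (-1.52), parts of the complexes that pass amino acid signals on, were lower. Castor1, an arginine sensor, was higher by 1.76 and Rheb, the activating GTPase, by 0.38, and the direction of Rheb turned to -0.14 with equal library totals. Of 8 mitochondrial stress genes 6 were lower and 1 was higher, with a median of -1.56. The chaperone genes Dnaja3 (-2.54), Hspe1 (-2.13) and Hspa9 (-1.96) were among the lower ones, and the protease gene Yme1l1 was the higher one at 0.59, a call lost in 8 of 19 alternatives.

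Across the 12 lists of pathway and related genes, each gene counted once and the 9 members left out, 115 of 129 genes were tested. Of these 41 were higher and 45 were lower, so 74.8% passed, against 55.0% of all tested genes, and the median log2 difference was -0.21, against -0.16 over all tested genes. These counts include 2 lists of genes known to respond to other influences, in both of which more genes were higher than lower. Counted without these 2 lists, lower genes outnumbered higher ones by a wider margin than 45 to 41. The phosphatase arm, bZIP factors and other ATF4 or CHOP targets went the other way, and the paralogs had 1 of each. Of 9 glucocorticoid-responsive genes 7 were higher and 1 was lower, with a median of 1.48, and Il1r2 among the higher ones is also a neutrophil marker. Fkbp5, the usual reporter of glucocorticoid receptor activity, stood at 5520, 5807, 5080 and 3321 normalized counts in HF1 to HF4, against 407, 426 and 479 in LF6 to LF8 (log2 difference 3.46; limma adjusted p = 2.99e-06), and Tsc22d3 was higher by 1.65. The 1 lower gene of this list was Klf9 (log2 difference -1.68; limma adjusted p = 0.0060), named after its value was seen. Ddit4, also known to respond to glucocorticoids, was lower too. Of 16 genes known to rise when tissue is dissociated 11 were higher and 4 were lower, with a median of 1.55, and Dusp1 (1.93), Junb (2.30) and Btg2 (1.99) were among the higher ones. Hspa1a (-3.58) and Hspa1b (-2.83), named after their values were seen, were among the lower ones. The part of dissociation and of the difference in cell markers in the stress response values was not tested. The neutrophil and monocyte markers of the same libraries had median log2 differences of 9.82 and -2.66.

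**Figure D3:**
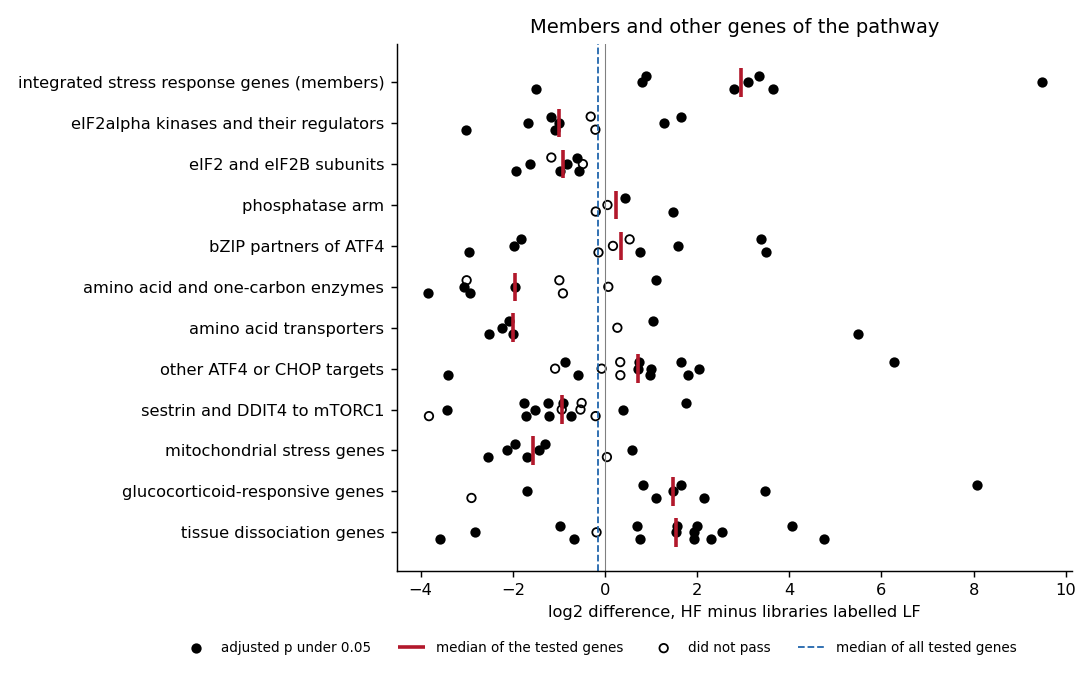
Log2 difference (HF minus the LF-labelled libraries) of each tested gene, with 1 row for the 8 tested members and 1 for each list of related genes except the paralogs. Filled points passed an adjusted p of 0.05 (limma), open points did not, red bars are medians of the tested genes in a row, and the dashed line is the median of all tested genes at -0.16. The row of the members has its median at 2.95, while enzymes, transporters, mTORC1 genes and mitochondrial stress genes have medians between -1.999 and -0.94. Medians above 0 are those of the tissue dissociation genes (1.55), glucocorticoid-responsive genes (1.48), other ATF4 or CHOP targets (0.73), bZIP factors (0.35) and phosphatase arm (0.25).

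The scaling of the libraries shifted every gene. Setting all libraries to equal totals moved the difference of all genes by a median of -0.52 (log2) and led to 9045 calls. Higher calls then made up 29.7%, where the authors' scaling gave 47.7%. Quantile normalization moved it by 0.20. Relative to the median of all tested genes, the difference of Atf4 was 0.96 with the authors' scaling, 0.98 at equal library totals and 0.67 after quantile normalization. That of Ppp1r15a was 1.05, 1.08 and 0.45 in the same order, and that of Ddit4 was -1.33, -1.31 and -1.08. For Ddit3, Sesn2, Asns, Trib3 and Chac1, differences were 2.27 or more under each of the 3 scalings, with no subtraction.

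**Figure D4:**
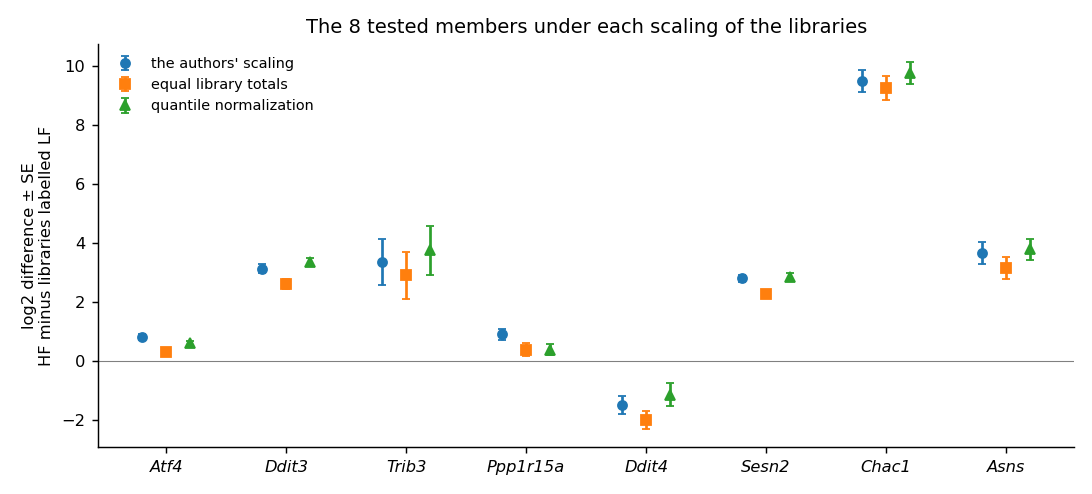
Log2 difference (HF minus the LF-labelled libraries) with its SE for the 8 tested genes under the authors' scaling, equal library totals and quantile normalization. Ddit4 is below 0 and the other genes are above 0 under all 3, with Atf4 at 0.28 and Ppp1r15a at 0.37 as the smallest positive values, both with equal library totals.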

How the data were processed

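Per the labels' protocols, RNA came from a TRIzol LS isolation and was made into libraries by a SMART-Seq kit. Tools listed without a role in the submitters' processing notes were featureCounts (1.6.3), STAR (2.6.1b) and DESeq2 (1.20.0). Their settings, the genome build, the annotation and the use of strand were not given in the sources used here. In the deposited table each library has a signal at or above 0, which the table's name calls normalized counts. Per the file headers the table also has the authors' log2 fold changes with errors, a test statistic (a score), p-values and adjusted p-values, cited only by that source's name, the authors' deposited table. In each library 100% of values were whole multiples of what 1 read is worth (tolerance 0.01), so whole reads were recovered. HF columns match the labels of HF samples. The LF columns carry the numbers 6 to 8 and the labels 1 to 3, so these columns were assigned to the LF group without a replicate number. Of the columns of single libraries, 0 were left unmapped. Mice are counted per group in the design text, and the p-values reflect how far these libraries spread, no more.

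The tested genes were those with a mean normalized count of 10 or more. Tests were run by limma 3.58.1 (R 4.3.3, trend=TRUE, group as the only term) on log2(normalized count + 1), with Benjamini-Hochberg adjustment over all 14936 genes and a threshold of 0.05. A log2 difference on this scale understates the change of low genes. As alternatives, the pseudocount was set to 0.5 or 5, the filter was dropped or raised to a mean of 50, and libraries were set to equal totals or quantile normalized. The fit was repeated with no trend, a robust prior or array weights, with each library left out, and on the recovered reads with DESeq2 1.42.0 and edgeR 4.0.16 (TMM, or the authors' size factors, which called 7624 genes). Ratios within a library were tested by exact permutation over libraries. Intervals of ratios of reads are 95% intervals for counting error alone, because reads were amplified and carry no molecular identifiers. The fits were tested on simulated data in which few genes changed, unlike in this comparison, so that test does not bear on the scaling. The members and lists were chosen with earlier results of these data known. The genes named are the 9 members, their relatives in the 12 pairs, sort genes, and from each list the 3 genes of lowest p and the 1 of highest mean. Others are marked as named after their values were seen. Promoter sequences are those of RefSeq on GRCm38.p6, matched by symbol. Figures were drawn with matplotlib 3.10.9.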

Additional observations from a re-analysis of the deposited data

Results flagged for a closer look

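Within the 4 HF libraries, 7 of 85 genes tried had 1 library far from the other 3, with a gap to the nearest of them, as a share of the whole range, above Dixon's 95% critical value. Chance flags about 1 in 20 groups. Of the stress response genes this was Sesn2, where HF3 stood at 2594 normalized counts and the others at 3185 to 3244 (gap over range 0.91). Among pathway genes it was Gcn1l1, with HF4 at 566 and the others at 431 to 451 (0.85), and Mthfd2, with HF1 at 287 and the others at 121 to 149 (0.833). Among markers it was Chil3, listed with the alveolar macrophage genes, with HF1 at 30150 and the others at 6508 to 9035 (0.893). Chil3 was also high in the LF-labelled libraries, at 18663 to 20453. The endothelial gene Kdr had HF2 at 20.6 and the others at 0 (1). The platelet genes Itga2b, with HF3 at 666 and the others at 128 to 184 (0.896), and Ppbp, with HF3 at 1612 and the others at 214 to 354 (0.9), stood out in the same library as Sesn2. Whether the platelet genes bear on the lower Sesn2 value was not tested. HF1 was also highest in some marker genes that were not tried, named after their values were seen. The neutrophil marker Ltf stood at 64164 in HF1 and 12474 to 20498 in the others, and Camp at 17783 and 5131 to 6465. The alveolar macrophage gene Atp6v0d2 stood at 703 in HF1 and 21.3 to 51.3 in the others. Other neutrophil markers, such as S100a8 and S100a9, were highest in HF4.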

How the results depend on the processing

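Over 19 alternatives the number of stress response genes called was 7 or 8, that of the other pathway genes 71 to 96 and that of all genes 6432 to 9045. Of 151 values of the 8 tested genes, 149 kept their direction and their side of the threshold, and the 2 exceptions were Ppp1r15a under either of the other scalings. Trib3 was not tested with a mean of at least 50. The turns of direction listed next are those of 85 genes followed singly, and genes outside these turned as well. Among called genes of the 85, directions turned for Ppp1ca (-0.0781 with equal library totals, -0.385 after quantile normalization), Nfe2l2 (-0.0358 after quantile normalization) and Rheb (-0.139 with equal library totals). Outside the 85, the called gene Sqstm1 turned in 1 of 19 alternatives, named after its value was seen. Genes of the 85 that were not called also changed sign: Ighm (-0.737 after quantile normalization, called there, -0.468 with equal library totals, -0.0889 without HF1, -0.0224 without HF4), Chac2 (-0.31 with equal library totals, -0.0162 without HF4), Sesn3 (-0.176 with equal library totals) and Trib2 (-0.318 without HF2). The log2 ratio of Ddit4 to Ddit4l (-0.123) turned to 0.349 at a pseudocount of 0.5 and ranged from -1.26 to 0.665 with single libraries left out. That of Trib3 to Ddit3 (0.233) turned to -0.437 at a pseudocount of 5 and ranged from -0.365 to 0.802 with single libraries left out. The cause was not tested. No paired analysis was possible because the LF columns carry none of the replicate numbers of the labels. Depth limits Atf5 (17 and 20 reads), Chac1 in the libraries labelled LF (1 read) and Trib3 there (32 reads).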
